A study of Mus musculus with 4 samples.

Results

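A group of 64 mouse genes was low in erythroblasts with wild-type GATA-1 and near the level of GATA-1-deficient control cells with either of 2 GATA-1 mutants. Transcripts were sequenced from the erythroblast line G1E, which has no GATA-1, the DNA-binding protein on which red cell maturation depends. By the labels there was 1 sample each of G1E control cells, of cells carrying the normal protein (GATA-1 WT), and of cells carrying GATA-1 2RA or GATA-1 V205M, written 2RA and V205M where levels are given. All 4 were induced with β-estradiol, so the control carries the hormone treatment too. V205M is known to weaken the contact between GATA-1 and its cofactor FOG-1, and what 2RA changes is not in the labels. They also do not say how the GATA-1 forms were introduced or whether each group is 1 clone. The labels name no replicate, so a difference between groups has no replicate check.

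The 64 genes were chosen from the deposited tables by their levels, and the levels were therefore described and not tested. A level is the group's mean of size-factor-scaled read counts as the authors deposited it, called scaled reads here. Of 2982 genes in any of the 6 pairwise tables, 1157 had a level in all 4 groups and 1124 of these reached 50 scaled reads in at least 1 group. From these were kept the genes whose GATA-1 WT level was at most 50% of the control, whose level in both mutants was at least 2 times GATA-1 WT, and whose level in both mutants lay between 50% and 2 times the control. That left 70 genes, of which 6 were set aside by name (Ccnd2, Gata2, Ikzf2, Kit, Slc45a3 and Slc7a8). The word "low" here means a lower transcript level, since fewer cells that express a gene and less RNA per cell cannot be told apart in bulk RNA.

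GATA-1 both activates and represses genes as erythroblasts mature. It binds the letters GATA in DNA through its zinc fingers, and the amino-terminal finger also holds FOG-1 (encoded by Zfpm1), which in turn can recruit the NuRD chromatin remodelling and histone deacetylase complex. Genes of the progenitor state, such as Gata2, Kit and Myb, are classic genes that are shut down when GATA-1 is restored in G1E-type cells.

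Promoter sequence is a feature that the choice of the genes did not use, and 52 of the 64 genes had a promoter in the RefSeq-based table of the GRCm38.p6 build, 250 bases before to 50 after an annotated start. Of these, 8 (15.4%) held AGATAA or TGATAA on either strand, the letters of the common GATA site. The same letters stood in 14.1% of 192 other genes that were at or below 50% of the control in GATA-1 WT, in 17.2% of 822 genes with all 4 levels, and in 20.96% of 27025 genes with a promoter. The share in the 64 genes thus lay between that of the other genes low in GATA-1 WT and those of the wider sets. Windows are printed for 3 of the 8, taken in order of control level from the genes that stand out by loss, level, unequal mutants, a gene list or a limit of the choice. H6pd qualified by its loss and is itself low in the control. Capitals mark the match on the gene's strand, 5′ to 3′.
Sipa1l1: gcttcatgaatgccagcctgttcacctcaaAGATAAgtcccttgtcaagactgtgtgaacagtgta
Vat1: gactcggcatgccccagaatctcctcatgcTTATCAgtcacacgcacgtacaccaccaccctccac
H6pd: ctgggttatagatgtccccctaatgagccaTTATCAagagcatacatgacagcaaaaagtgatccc
The Sipa1l1 window is chr12:82311231-82311296, plus strand, with the match starting 88 bases before the start used. The Vat1 window is chr11:101466339-101466404, minus strand, with the match 175 bases before it, and the H6pd window is chr4:150003370-150003435, minus strand, with the match 169 bases before it. In Vat1 and H6pd the letters on the gene's strand are TTATCA, which read TGATAA on the other strand. Among the 52 genes, a gene with more than 1 annotated start counted when any of its windows held a match. Sipa1l1 has another annotated start, further upstream, whose window at chr12:82169766-82170065 held none, so its printed match belongs to an internal start.

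The letters CACGTG, the E-box that MYC and related factors bind, were looked for after the genes had been seen. They stood in 6 of the 52 promoters (11.5%), beside 9.38% of the other genes low in GATA-1 WT, 12.4% of genes with all 4 levels and 8.09% of all genes. Of the 6, 3 belonged to the ribosome assembly genes Wdr43, Utp20 and Mdn1, whose matches all lay after the start, and these 3 are printed for that reason.
Wdr43: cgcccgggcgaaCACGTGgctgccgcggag
Utp20: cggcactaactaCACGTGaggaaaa
Mdn1: gaattccttcacCACGTGtgtgtc
These lie at chr17:71616220-71616249, plus strand, at chr10:88826765-88826789, minus strand and at chr4:32657145-32657168, plus strand. The first base of the match is base 18, 38 and 39 counted from the annotated start used as base 1. The fourth ribosome or polymerase I gene among the 64, Polr1b, had no CACGTG in its window. In a list of 38 genes for ribosome biogenesis and Myc-linked growth, 9 of 28 promoters of genes outside the 64 held the letters (32.1%). A match is a string of letters and was not tied to binding in these cells. The median GC content of the 52 promoters was 62.8%, against 52.8% for all genes.

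**Figure D1:**
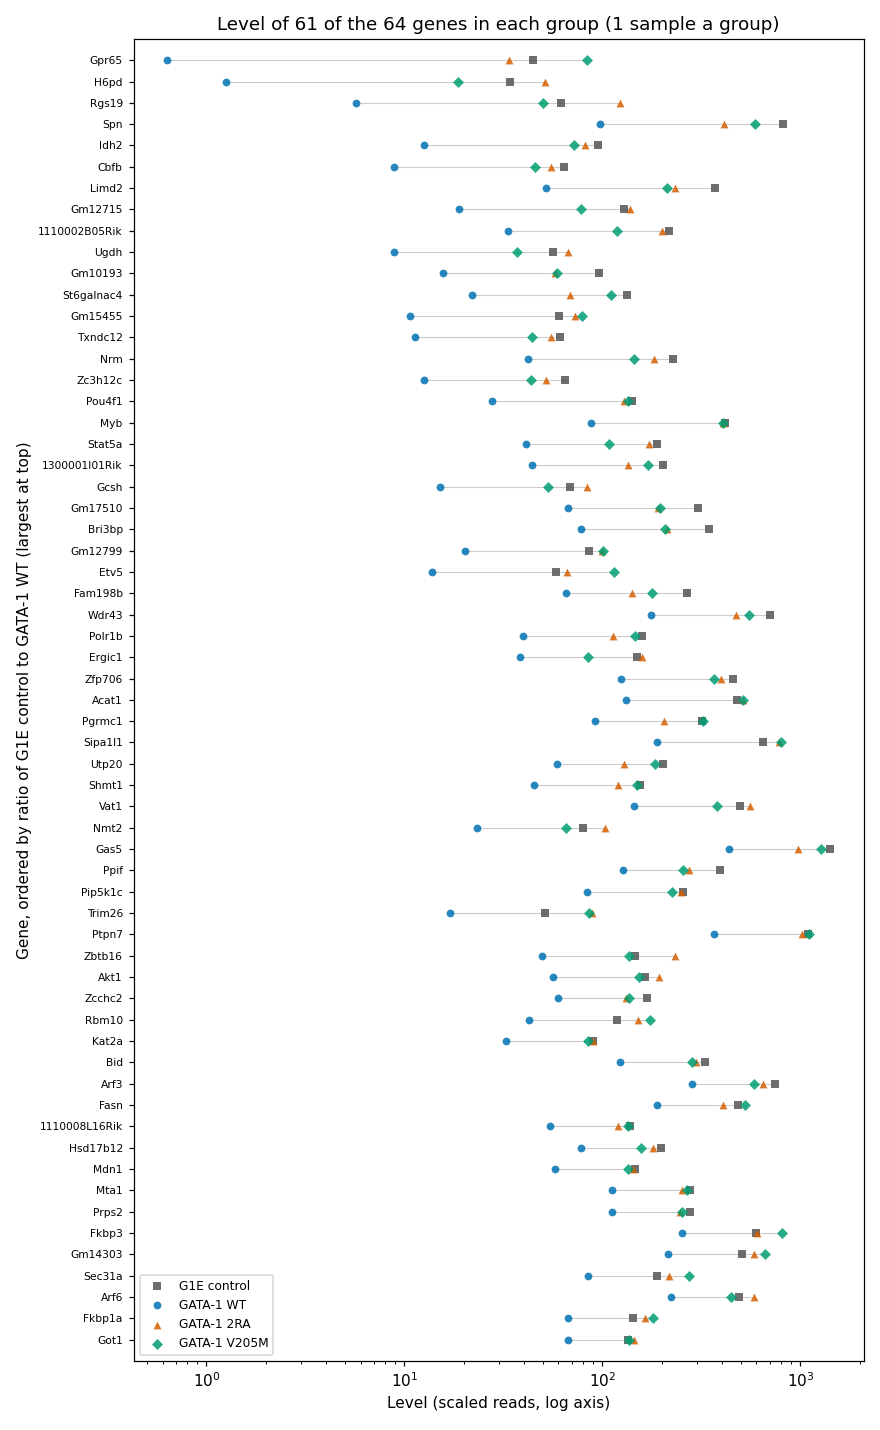
Level of 61 of the 64 genes (rows, ordered by the ratio of control to GATA-1 WT) in scaled reads on a log axis; squares are the G1E control, circles GATA-1 WT, triangles GATA-1 2RA and diamonds GATA-1 V205M, 1 sample each. The circle is the leftmost mark in every row, which the choice of the genes fixes, and its distance from the other 3 marks is longest for Gpr65, H6pd and Rgs19.

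Control levels of the 64 genes ran from 34.0 to 1418 scaled reads with a median of 189.6, and GATA-1 WT levels from 0.630 to 436 with a median of 55.1. 2RA levels ran from 33.6 to 1023 with a median of 169, and V205M levels from 18.6 to 1278 with a median of 155. Relative to the control, the median gene stood at 27.4% with GATA-1 WT, 90.8% with 2RA and 87.0% with V205M. The GATA-1 WT level varied widely among the genes, from 1.41% to 49.95% of the control.

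In the authors' deposited tables, whose entries had adjusted p-values up to 0.00999856 and changes of more than 2-fold, all 64 were listed as below the control in GATA-1 WT, where 4.86% of 12931 genes were. All 64 were also listed as higher in 2RA than in GATA-1 WT (background 3.33%) and as higher in V205M than in GATA-1 WT (background 3.7%). The choice of the genes used these contrasts, so nothing is read from the counts. Over the 64 genes the median log2 ratio of GATA-1 WT to control was -1.87, beside 1.01 over all 1124 genes and -2.01 over the 331 genes at or below 50% of the control. The median log2 ratio to GATA-1 WT was 1.74 in 2RA, beside -0.14 over the 1124, and 1.68 in V205M, beside -0.44.

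Of the 331 genes low in GATA-1 WT, 148 were at 2 times GATA-1 WT or more in both mutants, 63 in 2RA alone, 63 in V205M alone and 57 in neither. Over all 1124 genes, 29.4% were that low in GATA-1 WT, 28.9% were at 2 times GATA-1 WT or more in 2RA and 26.2% in V205M. A gene had all 4 levels only if the authors listed it in comparisons that covered the 4 groups. Of the 628 genes listed as below the control in GATA-1 WT, 311 had all 4 levels. These counts and shares therefore depend on that listing and do not describe all genes low in GATA-1 WT. The 64 genes come from the 148, by way of the 70 that also lay within 2-fold of the control in both mutants. They are therefore the subset in which both mutants came back to the control range, and not all genes that were higher in both. How the 64 sit among the 331 is seen in the plot of the mutants' ratios to the control, where many of the others lie left of or below the band.

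**Figure D2:**
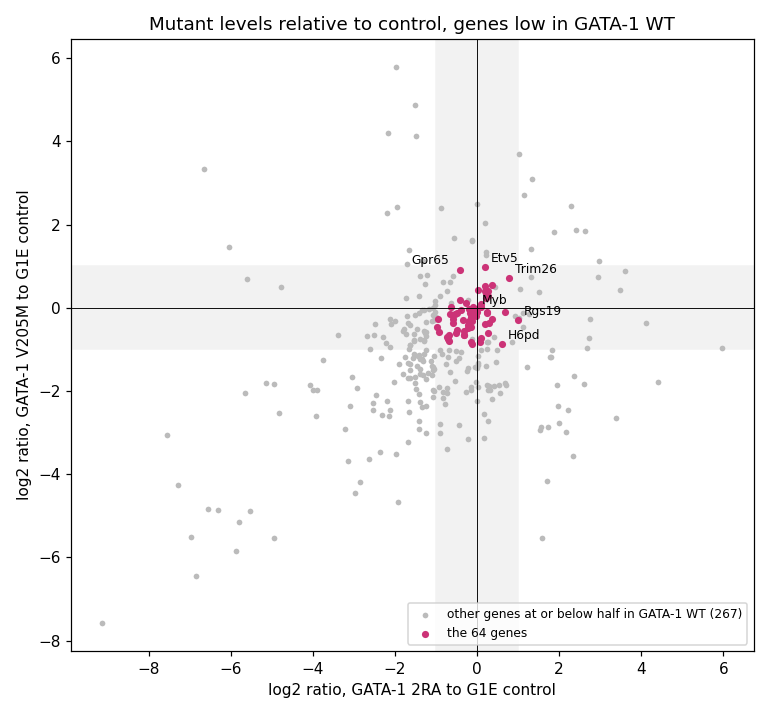
Log2 ratio of GATA-1 2RA (x axis) and GATA-1 V205M (y axis) to the G1E control for the 331 genes at or below 50% of the control in GATA-1 WT; coloured points are the 64 genes and grey points the other 267. Grey bands mark ratios within 2-fold of the control; the 64 genes lie inside both bands by choice, and names mark 6 of them, with Etv5 near the upper edge and Rgs19 near the right edge.

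Within that range the 64 genes sat on both sides of the control. Both mutants were at or above the control for 12 genes and both below it for 36, while 2RA alone was at or above it for 11 and V205M alone for 5. As a share of the log2 difference between control and GATA-1 WT, the median gene regained 93.5% in 2RA (range 54.8% to 149%) and 89.1% in V205M (58.0% to 147%). Within 1.2-fold of the control lay 34 genes in 2RA and 24 in V205M. None of the 64 was listed in the authors' deposited tables as different between a mutant and the control, where 4.86% of 12931 genes were listed higher and 2.61% lower in 2RA, and 4.83% higher and 3.32% lower in V205M. The limits of the choice keep the 64 out of those lists. These positions move with the scaling between libraries: with levels set to an equal sum over the genes with all 4 levels, 51 of the 64 were below the control in both mutants, and with the median log2 ratio to the control set to 0, 50 were. Those scalings lower GATA-1 WT against the control by 0.73 and 0.90 on the log2 scale, and the order of GATA-1 WT below control and below both mutants held for all 64 under each.

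The transcription factor and chromatin genes numbered 8. Myb, which encodes a factor that keeps blood progenitors immature, stood at 416 scaled reads in the control, 87.5 with GATA-1 WT, 406 with 2RA and 408 with V205M. The control was 4.75-fold (95% counting interval 4.01 to 5.84) above GATA-1 WT, where the interval, from the recovered whole reads, covers counting error only. The ratio to the control was 0.976 (95% counting interval 0.857 to 1.08) in 2RA and 0.981 (95% counting interval 0.871 to 1.07) in V205M. At the deposited scaling, both mutant levels were thus within counting error of the control. The choice of the genes used these same ratios, and the intervals leave out the scaling between libraries. An equal sum over the genes with all 4 levels shifts 2RA by -0.32 and V205M by -0.31 against the control on the log2 scale. Myb lies at chr10:21124935-21160984 (GRCm38, minus strand), and its exons overlap those of Gm26577 on the other strand, so reads of the pair could be mixed if counting ignored strand.

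Stat5a, a signal transducer for erythropoietin and other cytokines, stood at 189.6 scaled reads in the control, 40.9 with GATA-1 WT, 172 with 2RA and 108 with V205M. It returned further in 2RA (90.8% of the control) than in V205M (56.99%). Cbfb, the shared partner subunit of the RUNX factors, stood at 64.2 scaled reads in the control, 8.82 with GATA-1 WT, 55.01 with 2RA and 45.8 with V205M, the largest relative loss of the 8. Zbtb16, which encodes the repressor PLZF, stood at 146 scaled reads in the control, 49.8 with GATA-1 WT, 233 with 2RA and 137 with V205M. It was the member of the 8 that lay furthest above the control in 2RA, while V205M was just below the control.

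Etv5, an ETS factor that acts downstream of growth factor signals, stood at 58.3 scaled reads in the control, 13.9 with GATA-1 WT, 66.4 with 2RA and 115 with V205M. Its level in V205M, 197% of the control, was the highest of the 64 in that group relative to the control. Pou4f1, a POU-domain factor best known from sensory neurons, stood at 142 scaled reads in the control, 27.7 with GATA-1 WT, 128 with 2RA and 135 with V205M. Kat2a, the histone acetyltransferase GCN5, stood at 89.8 scaled reads in the control, 32.8 with GATA-1 WT, 89.3 with 2RA and 84.2 with V205M, and Mta1, a subunit of the NuRD complex, at 278, 111, 253 and 269 scaled reads in the same order. Pou4f1, Kat2a and Mta1 were all within 10% of the control in both mutants, while their GATA-1 WT levels were 19.6%, 36.5% and 40.2% of it.

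For the 10 genes of ribosome assembly and RNA handling, the median level was lower in 2RA than in V205M, as a description of these libraries. Their median log2 ratio to the control was -0.49 in 2RA and -0.15 in V205M, and 3 of the 10 were higher in 2RA than in V205M. Wdr43, a protein of the early small-subunit processing complex, stood at 706 scaled reads in the control, 175 with GATA-1 WT, 472 with 2RA and 548 with V205M. Utp20, another small-subunit processing protein, stood at 203 scaled reads in the control, 59.2 with GATA-1 WT, 128 with 2RA and 184 with V205M. Polr1b, the second largest subunit of RNA polymerase I, stood at 159 scaled reads in the control, 39.7 with GATA-1 WT, 114 with 2RA and 146 with V205M. In all 3 the order was control, V205M, 2RA and GATA-1 WT, with 2RA between 63.1% and 71.4% of the control.

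Mdn1, a very large ATPase that remodels the precursor of the large ribosomal subunit, did not share that order. It stood at 146 scaled reads in the control, 57.9 with GATA-1 WT, 142 with 2RA and 135 with V205M, with both mutants within 10% of the control. Gas5, a spliced host transcript of several small nucleolar RNAs and the only long non-coding RNA of the 64, had the most scaled reads in the control, a number that is not corrected for length. It stood at 1418 scaled reads in the control, 436 with GATA-1 WT, 972 with 2RA and 1278 with V205M, and the control was 3.25-fold (95% counting interval 3.10 to 3.68) above GATA-1 WT. Gas5 lies at chr1:161034422-161038539 (GRCm38, plus strand), and the small RNAs within it share its reads.

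Another 4 genes of this role act on RNA in the nucleus, cytoplasm or mitochondria. Rbm10, a splicing regulator, stood at 118 scaled reads in the control, 42.8 with GATA-1 WT, 152 with 2RA and 173 with V205M, and was the 1 gene of these 10 that lay above the control in both mutants. Zc3h12c, of the regnase family of RNA-degrading proteins, stood in the same order at 64.7, 12.6, 52.2 and 43.7 scaled reads. 1300001I01Rik, now named Cluh, which binds mRNAs for mitochondrial proteins, stood at 203, 44.1, 134 and 169.7, and 1110008L16Rik, now Prorp, the protein-only RNase P of mitochondria, at 138, 54.2, 120.02 and 135. Cluh resembled Wdr43 in that 2RA was the lower mutant.

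**Figure D3:**
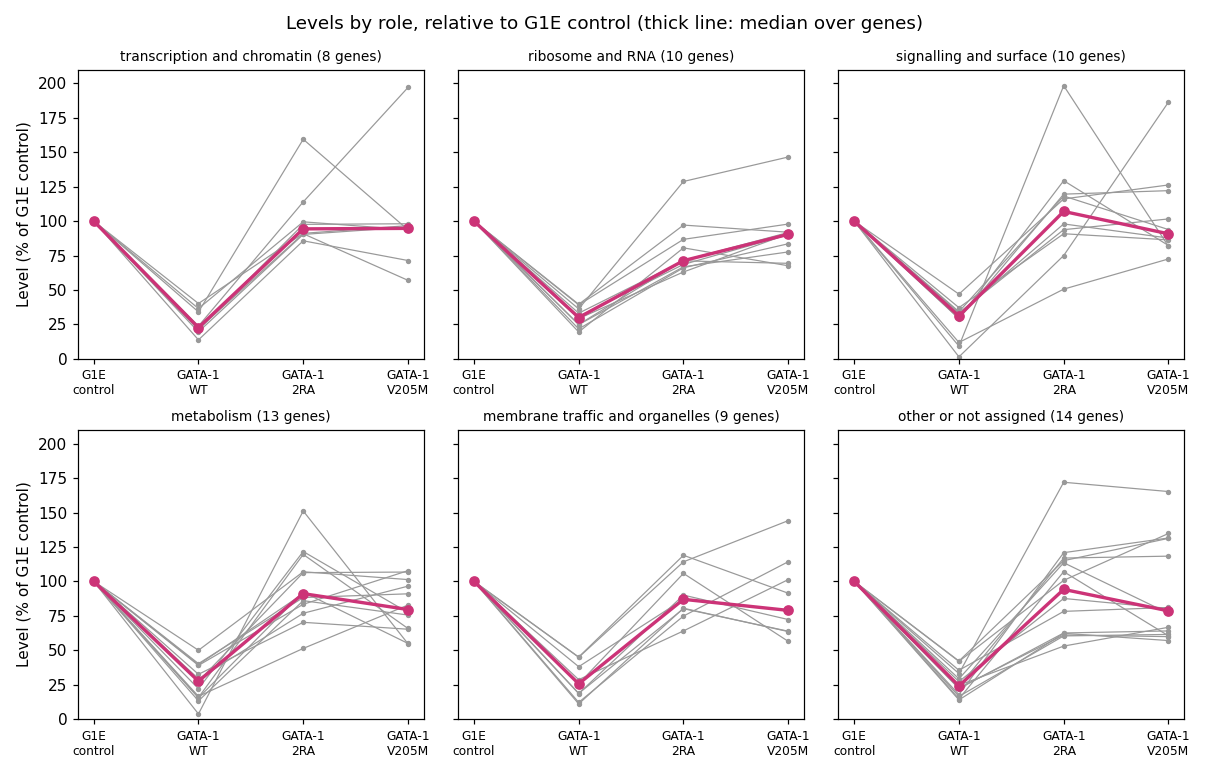
Level as a percentage of the G1E control (y axis) in each group (x axis) for the 64 genes, split by role; thin grey lines are single genes, the thick line is the median of the role, and each group is 1 sample. The roles were assigned after the genes were known. The median of the ribosome and RNA panel is lower in GATA-1 2RA than in GATA-1 V205M. In the signalling, metabolism, membrane traffic and unassigned panels it is higher in GATA-1 2RA, and in the transcription and chromatin panel the medians are nearly equal.

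The 10 signalling and surface genes held the deepest loss and some of the widest splits between mutants. Gpr65, a receptor that senses protons outside the cell, stood at 44.8 scaled reads in the control, 0.630 with GATA-1 WT, 33.6 with 2RA and 83.5 with V205M. The GATA-1 WT value is 1 read, so the control was 71.1-fold (95% counting interval 11.9 to 2755) above it with a very wide interval. The lowest read number listed for any gene was 1 in that library, and whether genes without reads were left out or 1 was added to each count is not stated in the sources used here.

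Rgs19, which shortens G-protein signals, stood at 61.6 scaled reads in the control, 5.67 with GATA-1 WT, 122 with 2RA and 50.3 with V205M. It reached 198% of the control in 2RA, the highest of the 64 in that group, and 81.7% in V205M. Spn, the surface sialoglycoprotein CD43 of blood cells, stood at 818 scaled reads in the control, 96.99 with GATA-1 WT, 414 with 2RA and 593 with V205M, and the control was 8.43-fold (95% counting interval 7.51 to 10.6) above GATA-1 WT. Spn in 2RA, at 50.6% of the control, was the lowest of the 64 in that group relative to the control. Ptpn7, a phosphatase of MAP kinases in blood cells, stood at 1091 scaled reads in the control, 365 with GATA-1 WT, 1023 with 2RA and 1108 with V205M. It was within 10% of the control in both mutants.

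Sipa1l1, a regulator of the small GTPase RAP1 and one of the genes whose promoter letters are printed above, stood at 651 scaled reads in the control, 189.6 with GATA-1 WT, 778 with 2RA and 795 with V205M. Its level in both mutants was above the control. Akt1, the growth-promoting kinase downstream of PI3 kinase, stood at 164 scaled reads in the control, 56.1 with GATA-1 WT, 194 with 2RA and 154 with V205M, and Pip5k1c, a kinase that makes the membrane lipid PIP2, at 256, 83.8, 251 and 224 scaled reads in the same order. Bid, a cell death protein of the BCL-2 family, stood at 329, 122, 299 and 284 in that order. Fkbp1a, the target of rapamycin and FK506, stood at 142, 66.8, 165 and 179, and Nmt2, which attaches myristate to proteins, at 79.5, 23.3, 103 and 65.4. Of these 6 genes, Sipa1l1 and Fkbp1a were above the control in both mutants, Akt1 and Nmt2 in 2RA alone, and Pip5k1c and Bid in neither.

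The 13 metabolic genes covered one-carbon, amino acid, nucleotide, lipid and sugar pathways. H6pd, the enzyme that supplies NADPH inside the endoplasmic reticulum, stood at 34.04 scaled reads in the control, 1.26 with GATA-1 WT, 51.4 with 2RA and 18.6 with V205M. Its GATA-1 WT value is 2 reads, and the control was 27.02-fold (95% counting interval 6.84 to 221) above it. H6pd had the largest excess of 2RA over V205M of the 64, 2.76-fold (95% counting interval 1.86 to 4.2). Idh2, the mitochondrial NADP-dependent isocitrate dehydrogenase, stood at 95.5 scaled reads in the control, 12.6 with GATA-1 WT, 82.2 with 2RA and 72.2 with V205M. Ugdh, which makes UDP-glucuronate, stood at 56.2 scaled reads in the control, 8.82 with GATA-1 WT, 67.2 with 2RA and 36.9 with V205M. Idh2 was below the control in both mutants, whereas Ugdh was above it in 2RA alone.

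Shmt1, the cytosolic enzyme that passes one-carbon units from serine to folate, stood at 155 scaled reads in the control, 45.3 with GATA-1 WT, 119 with 2RA and 149.9 with V205M. Gcsh, the lipoate-bearing protein of the glycine cleavage system, stood at 68.7 scaled reads in the control, 15.1 with GATA-1 WT, 83.6 with 2RA and 53.2 with V205M. Got1, the cytosolic aspartate aminotransferase, stood at 135 scaled reads in the control, 67.4 with GATA-1 WT, 144 with 2RA and 137 with V205M, and Prps2, which makes the ribose donor for nucleotides, at 278, 112, 246 and 253 scaled reads in the same order. Shmt1 and Prps2 were below the control in both mutants, Got1 was above it in both, and Gcsh was above it in 2RA alone.

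Fasn, the fatty acid synthase, stood at 487 scaled reads in the control, 189.6 with GATA-1 WT, 406 with 2RA and 525 with V205M. Acat1, the mitochondrial acetyl-CoA acetyltransferase, stood at 481 scaled reads in the control, 132 with GATA-1 WT, 512 with 2RA and 514 with V205M. Acat1 was above the control by a similar amount in both mutants, whereas Fasn was above it in V205M alone. Hsd17b12, an enzyme of fatty acid elongation, stood at 198, 78.1, 180.03 and 157 scaled reads in the same order, and 1110002B05Rik, now Sptssa, a small subunit of serine palmitoyltransferase, at 217, 33.4, 200.04 and 119. St6galnac4, a sialyltransferase, stood at 134, 22.04, 68.6 and 111, and Ppif, the mitochondrial cyclophilin D, at 392, 127, 275 and 255. These 4 were below the control in both mutants, and St6galnac4 in 2RA stood at 51.3% of it.

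Among the 9 genes of membrane traffic and organelles, the median log2 ratio of 2RA to V205M was 0.32, and 6 of the 9 were higher in 2RA. Ergic1, a cycling protein of the compartment between endoplasmic reticulum and Golgi, stood at 149.9 scaled reads in the control, 38.4 with GATA-1 WT, 159 with 2RA and 84.6 with V205M. Its 2 mutants differed by 1.87-fold (95% counting interval 1.53 to 2.29), with 2RA above and V205M below the control.

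Sec31a, of the COPII coat, stood at 189.6 scaled reads in the control, 85.03 with GATA-1 WT, 216 with 2RA and 273 with V205M. Arf6, a small GTPase of the plasma membrane and endosomes, stood at 491 scaled reads in the control, 221 with GATA-1 WT, 584 with 2RA and 448 with V205M, and its relative Arf3 at 742, 282, 645 and 585 scaled reads in the same order. Sec31a was above the control in both mutants, Arf6 in 2RA alone and Arf3 in neither. Pgrmc1, a heme-binding membrane protein, stood at 319, 91.3, 204 and 323 in that order, Nrm (nurim, of the inner nuclear membrane) at 226, 42.2, 181 and 144, and Txndc12, a thioredoxin-like protein of the endoplasmic reticulum, at 61.1, 11.3, 55.01 and 44.2. Pgrmc1 reached the control in V205M, and Nrm and Txndc12 stayed below it in both mutants.

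The last 14 genes fell in no role above. Fkbp3, a nuclear FK506-binding protein, stood at 599.99 scaled reads in the control, 251 with GATA-1 WT, 604 with 2RA and 809 with V205M, and Vat1, whose promoter letters are printed above, at 493, 144, 560.1 and 379 in the same order. Limd2, a LIM-domain protein, stood at 372, 51.6, 231 and 212 scaled reads, Bri3bp at 346, 78.1, 211 and 207, and Fam198b, now Gask1b, at 267, 65.5, 141 and 178. Limd2, Bri3bp and Fam198b shared a partial return, with both mutants between 53.00% and 66.6% of the control. Trim26, a ring-finger protein, stood at 51.5, 17.01, 88.6 and 85.1 scaled reads, the zinc finger genes Zfp706 and Zcchc2 at 456, 124, 399 and 366 and at 169, 59.8, 132 and 137. Trim26 was above the control by a similar factor in both mutants, 172% and 165% of it, while Zfp706 and Zcchc2 were below it in both.

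The other 6 of these 14 are processed pseudogenes in GENCODE M21 (RefSeq calls 5 of them pseudogenes and Gm15455 protein coding). Copies of this kind are near-identical to a parent gene, and the authors' counting could have given them reads of the parent, so their values are uncertain. Gm14303 stood in the same order at 508, 214, 584 and 667 scaled reads, Gm17510, now Gm4202, at 305, 67.4, 191 and 195, and Gm12715 at 129, 18.9, 138 and 77.9. Gm10193 stood at 95.9, 15.7, 57.9 and 58.9, Gm12799 at 85.5, 20.2, 100.02 and 101 and Gm15455 at 60.3, 10.7, 72.9 and 79.3. Gm14303, Gm12799 and Gm15455 were above the control in both mutants, and Gm17510 and Gm10193 below it in both.

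Scaled reads grow with transcript length, so genes were compared with each other per kilobase of exon. On that scale the highest control levels were 2971 scaled reads per kilobase for Gm14303, whose exon is 171 bases, 416 for Gm17510, 415 for Gm10193, 377 for Gas5 and 319.9 for Arf6. The lowest were 6.5 for H6pd and 6.70 for Mdn1. Short pseudogenes therefore led the list per length. Exons of 24 of the 64 genes overlap exons of another gene, mostly on the other strand, as for Stat5a (Stat3), Shmt1 (Smcr8), Bid (Bcl2l13), Vat1 (Rnd2), Ergic1 (Dusp1), Fkbp3 (Prpf39) and Rbm10 (Ndufb11). The sources used here do not state whether counting used strand, and 36 of the 64 genes, Gm15455 among them, are neither pseudogenes in RefSeq nor overlapped.

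The 64 genes were spread over 18 chromosomes, with 8 each on chromosomes 2 and 12 and 7 on chromosome 11. The nearest pair was Kat2a and Stat5a on chromosome 11, 146886 bases apart. Gm10193 and Zcchc2 lay 225732 bases apart on chromosome 1, and Akt1 and Mta1 423394 bases apart on chromosome 12. Neighbours did not always share a level relative to the control: in V205M, Kat2a was at 93.8% of it and Stat5a at 56.99%.

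Both mutants were compared gene by gene as a description, since the choice of the genes used both. The median log2 ratio of 2RA to V205M over the 64 genes was 0.01 (range -1.31 to 1.47), beside 0.23 over all 1124 genes, and 32 genes were higher in each mutant. The sign of that median changed with the scaling and with the count column of V205M, so no order of the mutants is read from it. The counting interval of the ratio lay above 1 for 16 genes and below 1 for 18, and covered 1 for 30. 2RA was the higher by 1.5-fold or more for 10 genes and V205M for 5. In the authors' deposited tables only Rgs19 of the 64 was listed between the mutants, as higher in 2RA with an adjusted p-value of 0.00436, where 3.6% of 12931 genes were listed higher and 2.62% lower. How the authors estimated the spread behind that value with 1 sample per group is not stated in the labels.

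**Figure D4:**
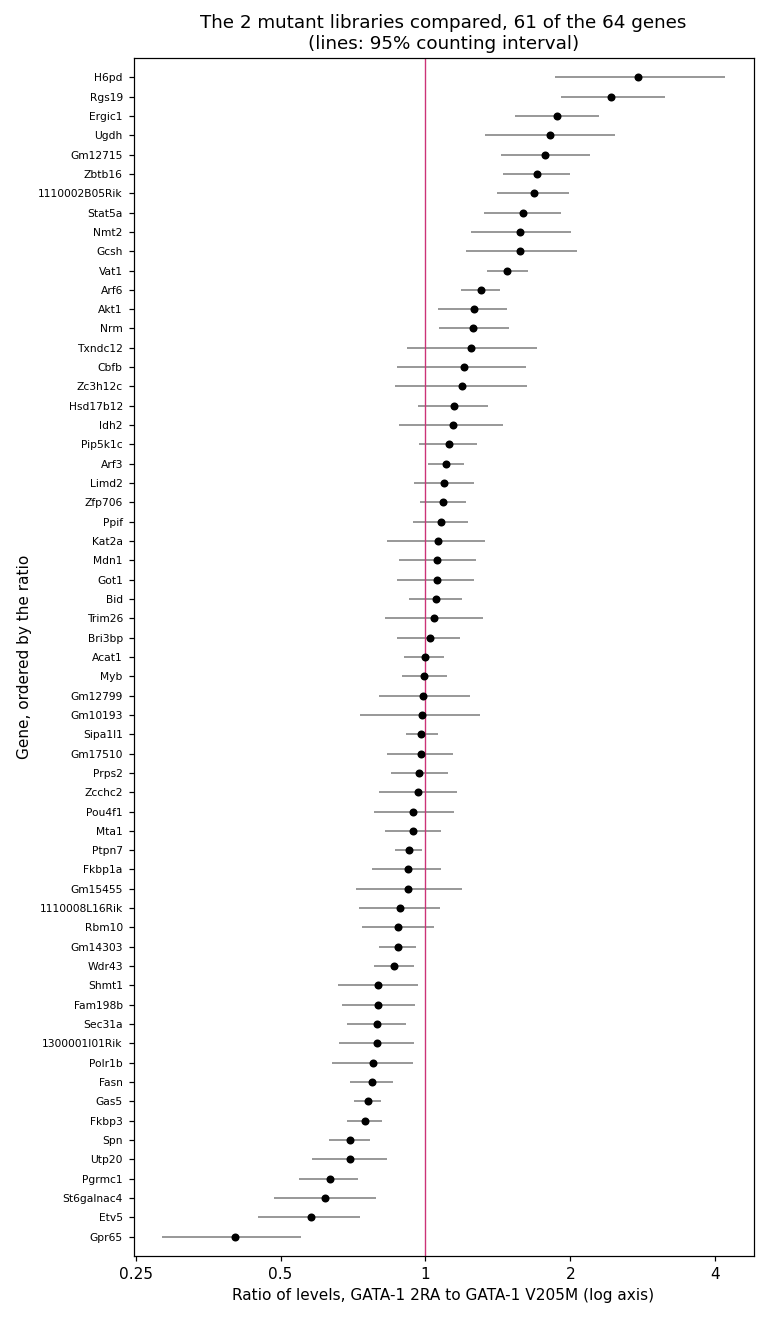
Ratio of the GATA-1 2RA level to the GATA-1 V205M level for 61 of the 64 genes on a log axis; points are the ratio and lines its 95% counting interval, with 1 sample per mutant. The ratio is highest for H6pd and Rgs19 and lowest for Gpr65 and Etv5, and the interval covers 1 for 29 of the genes shown.

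The 5 genes furthest toward 2RA were H6pd, Rgs19, Ergic1, Ugdh and Gm12715, with ratios from 1.77 to 2.76. Rgs19 differed by 2.43-fold (95% counting interval 1.91 to 3.14). The 4 furthest toward V205M were Gpr65, Etv5, St6galnac4 and Pgrmc1. Their ratios of 2RA to V205M ran from 0.402 to 0.632, and for Gpr65 the counting interval was 0.283 to 0.552. H6pd and Gpr65 were among the lowest genes of the 64 in the control, so few reads stand behind their ratios. Between the 2 count columns that were found inside the control level, which are not known to be replicates, the log2 ratio of the 64 genes had an SD of 0.22 and a largest size of 0.53 (Rgs19). Over the 1124 genes that SD was wider, 0.48. Inside the V205M level the SD over the 64 genes was 0.15 and the largest size 0.36 (Cbfb), beside an SD of 0.36 over the 1124 genes. The 1124 include genes with few reads in these groups, such as Slc4a1 at 5.80 scaled reads in the control and 0.931 with V205M. Among the 64 the lowest levels there were 34.0 and 18.6. The narrower SDs are therefore not read as a trait of the 64 genes.

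The lists of related genes were set beside the 64 to show what their pathways did. Among 54 progenitor and lineage transcription factors, the authors' deposited tables listed 6 as below the control in GATA-1 WT (Gata2, Myb, Myc, Ikzf2, Lmo4 and Stat5a) and 5 as higher. All 6 were listed as higher in V205M than in GATA-1 WT and 5 of them in 2RA. The background shares in GATA-1 WT were 4.86% lower and 8.17% higher. Of the 331 genes low in GATA-1 WT by level, 148 were at 2 times GATA-1 WT or more in both mutants. Another 63 were so in 2RA alone, 63 in V205M alone and 57 in neither. Most genes low in GATA-1 WT were thus higher in a mutant, and nothing particular to these factors is read from the counts. Myc stood at 530.1 scaled reads in the control, 152 in GATA-1 WT and 572 in V205M. It had no 2RA level in any table, which keeps it out of the 64.

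Among 38 genes for ribosome biogenesis and Myc-linked growth, 7 were listed as below the control in GATA-1 WT (Ncl, Wdr43, Polr1b, Wdr12, Cad, Tfb2m and Myc) and 3 as higher. The background shares for that comparison were 4.86% lower and 8.17% higher. Against GATA-1 WT, 13 of the 38 were listed as higher and none as lower in V205M, while 3 were listed as higher and 3 as lower in 2RA. These counts stand beside background shares of 3.7% higher and 5.65% lower for V205M, and of 3.33% higher and 4.04% lower for 2RA, and the difference between the mutants was not tested. Wdr43 and Polr1b, the 2 genes of this list among the 64, were listed in both mutants.

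Among 30 amino acid and one-carbon genes, the 3 listed as lower in GATA-1 WT (Shmt1, Mthfd1 and Got1) were listed as higher in both mutants, and 5 others were listed as above the control in GATA-1 WT. Mthfd1 was left out of the 64 because it stood at 2.51 times the control in V205M. Of 40 lipid and cholesterol genes, 7 were listed as lower in GATA-1 WT, and of these 2 were listed as higher in 2RA, 3 in V205M and 2, Fasn among them, in both. Of 26 genes for FOG-1, NuRD and GATA partners, 4 were listed as lower in GATA-1 WT (Gata2, Mta1, Chd3 and Lmo4), and 3 of these as higher in each mutant. Of 59 signalling regulators, 10 were listed as lower in GATA-1 WT, with 5 of these higher in 2RA and 2, Ptpn7 among them, higher in V205M. Beside these counts stand background shares in GATA-1 WT of 4.86% lower and 8.17% higher. Of the 331 genes low in GATA-1 WT by level, 148 were at 2 times GATA-1 WT or more in both mutants, 63 in 2RA alone and 63 in V205M alone. A return in the mutants is therefore not read as particular to any of these lists.

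Markers of mast cells and red cells differed between the same libraries. None of the 64 genes is on either list, but Kit and Slc45a3, which are on the mast cell list, met every limit and were set aside by name. The 14 mast cell markers with all 4 levels summed to 6487 scaled reads in the control, 442 with GATA-1 WT, 3966 with 2RA and 3469.6 with V205M. These sums rest on few genes: Kit stood at 2218 with 2RA and 1440.2 with V205M, while Cpa3, a mast cell protease, stood at 2795 in the control, 0.630 with GATA-1 WT, 5.001 with 2RA and 14.6 with V205M. Of 25 mast cell markers, 13 were listed as below the control in GATA-1 WT (background 4.86%), and of these 8 were listed as higher in 2RA and 9 in V205M. Among all 25, 9 were listed as higher than GATA-1 WT in 2RA (background 3.33%) and 9 in V205M (background 3.7%). Genes low in GATA-1 WT were often higher in the mutants: 148 of the 331 were at 2 times GATA-1 WT or more in both. The 22 erythroid markers with all 4 levels summed to 8896 scaled reads in the control, 87819.6 with GATA-1 WT, 10885 with 2RA and 7967 with V205M. These sums rest largely on globins: Hbb-b1 stood at 238, 39108, 2342 and 91.6 in the same order. Hba-a1 stood at 1291, 12001, 32.9 and 38.9, so single markers moved in opposite ways between control and 2RA. Of 30 erythroid markers, 20 were listed as above the control in GATA-1 WT (background 8.17%) and none as lower. Against GATA-1 WT, 20 were listed as lower in 2RA (background 4.04%) and 24 in V205M (background 5.65%), and none as higher. Of 29 megakaryocyte and platelet markers, 5 had all 4 levels. They summed to 615 in the control, 3587 with GATA-1 WT, 6177 with 2RA and 978 with V205M. Most of each sum outside the control was Fermt3, at 154, 3099, 4204 and 857 in the same order. Of the 29, 3 were listed as above the control in GATA-1 WT and 2, P2rx1 and Nbeal2, as below it. Of 25 neutrophil and macrophage, 20 lymphocyte and 18 endothelial and stromal markers, 1, 1 and 2 were in any table. The part of the mast cell and erythroid markers in the levels of the 64 genes was not tested.

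Gata1 itself stood at 153 scaled reads in the control, 2652 with GATA-1 WT, 1421 with 2RA and 613 with V205M. Both mutant libraries thus held less Gata1 RNA than the GATA-1 WT library, and the part of this in the mutant levels of the 64 genes was not tested. Reads in the genes of the 5 tables other than the one between the mutants, which are not the depth of a library, numbered 1015015 and 276064 in the 2 count columns of the control, 2178397 in GATA-1 WT, 1088550 in 2RA, and 1017945 and 866913 in those of V205M.

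The genes set aside by name met every limit too. Kit, the receptor of stem cell factor, stood at 2429 scaled reads in the control, 179 with GATA-1 WT, 2218 with 2RA and 1440.2 with V205M. Gata2, which encodes the progenitor GATA factor, had 773, 54.8, 514 and 1316 in the same order, and Ccnd2, the cell cycle gene cyclin D2, had 2143, 573, 2910 and 3028. Kit and Gata2 split between the mutants in opposite ways, Kit toward 2RA and Gata2 toward V205M.

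At the limits of the choice, Got1 was the gene nearest the limit on GATA-1 WT, at 0.4995 times the control. Ppif was nearest on V205M, at 2.01 times GATA-1 WT, and Msn, at 1.83 times, was the nearest outside. Fasn was nearest on 2RA, at 2.14 times GATA-1 WT, with Xpo6 at 1.59 outside. Against the control, Spn at 0.506 in 2RA and H6pd at 0.547 in V205M were just inside the lower limit, with Med14 at 0.422 and Ywhaz at 0.495 outside. Rgs19 at 1.98 in 2RA and Etv5 at 1.97 in V205M were just inside the upper limit, with Lphn1 at 2.04 and Far2 at 2.43 outside. H6pd, with a highest level of 51.4 scaled reads, was nearest the minimum, and Gm10451, at 48.1, fell below it.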

How the data were processed

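RNA was measured in 4 samples, 1 per group, of G1E cells. The 6 deposited tables hold, for each pair of groups, the genes that passed the authors' filter, with the signal of each group, a fold and log2 ratio, and a p-value with its adjusted value, per the file headers. The submitters' processing notes name the tools TopHat, deepTools, Cufflinks and Cuffdiff and the build mm10, without versions; which of them made these tables is not stated there. The signal that the authors deposited is a mean read count over 1 or 2 count columns, each divided by a size factor, as the values themselves show: whole reads were recovered for all levels of the 64 genes within a relative tolerance of 3e-11. The labels name 1 sample for the control and for GATA-1 V205M, where 2 count columns were found, and these were not treated as replicates.

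Levels from any table were joined by symbol; levels of 1 gene and group differed by at most 4.68e-10 between tables. No count test was run, since each group is 1 sample and the choice of the genes used every contrast. Ratios are of deposited levels, and 95% intervals come from the pooled reads and cover counting error only. The authors' adjusted p-values fit a Benjamini-Hochberg adjustment over 12931 genes, and the listed genes had adjusted p-values up to 0.00999856 and folds from 2.0009. The genes and the gene lists were chosen with earlier results of these data known. Described with values were 61 of the 64 genes (3 are counted but not reported here), led by those with the largest ratio of control to GATA-1 WT, the highest control levels, the most unequal mutants, a place on a gene list, or a place at a limit of the choice. Roles were assigned by hand after the genes were known.

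Coordinates, exon lengths and overlaps are from GENCODE M21 (GRCm38), promoters from RefSeq; 64 of 64 symbols matched and 12 genes had no promoter entry. Alternatives were other minimum levels and folds, pseudocounts, 2 scalings, each count column alone, and other motif letters or windows. Read recovery was tested on simulated data. Python 3.11.15, pandas 2.3.3, numpy 2.4.6, scipy 1.17.1 and matplotlib 3.10.9 were used.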

Additional observations from a re-analysis of the deposited data

How the results depend on the processing

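The number of genes that met the limits was 64, and between 51 and 70 with another minimum level, a fold of 1.5, no symbol set aside, a pseudocount of 1, another scaling or 1 count column. The membership moved more than the number: an equal sum kept 53 of the 64 and brought in 12 others, and the median ratio set to 0 kept 49 and brought in 18. A fold of 3 left 27, and leaving out RefSeq pseudogenes and genes with exon overlap left 36; both ask more of a gene. With an equal sum over the genes with all 4 levels, the median log2 ratio was -2.60 for GATA-1 WT to control, 2.15 for GATA-1 2RA to GATA-1 WT, 2.11 for GATA-1 V205M to GATA-1 WT, -0.46 for GATA-1 2RA to control and -0.51 for GATA-1 V205M to control. With the median ratio to the control set to 0 these were -2.77, 2.23, 2.37, -0.55 and -0.41. Both scalings rest on listed genes only, which were selected for a change. The median ratio of the mutants to each other ranged from -0.18 to 0.04 and changed sign. The promoter share of the GATA letters was 15.4% with upstream bases only and 21.2% with GATAA alone. CACGTG, a different motif chosen after the genes were seen, stood in 11.5%. Few reads in GATA-1 WT widen the ratios to it: the counting interval reached a median of 0.36 to each side on the log2 scale against the control, beside 0.25 between the mutants. No paired analysis was possible because each group is 1 sample.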
